A study of Mus musculus with 26 samples.

Results

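The genes of MHC class II antigen presentation were examined in mouse leukemia cells that overexpressed SETDB1, a histone H3 lysine 9 methyltransferase, and in empty vector control cells. The set held 10 genes: H2-Aa, H2-Ab1, H2-Eb1, Cd74, Ciita, H2-DMa, H2-DMb1, H2-DMb2, H2-Oa and H2-Ob. They were matched by mouse symbol to the Ensembl identifiers of the count tables, and all 10 had a row among 54146. Of the 10, 7 passed the filter on low counts and were tested, as were 12986 genes of the whole table.

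MHC class II molecules are heterodimers of an alpha and a beta chain that show peptides from endocytosed proteins to CD4 T cells. Their transcription depends on Ciita, a coactivator that docks on a complex of RFX, CREB and NF-Y proteins at the SXY elements of class II promoters. Cd74, the invariant chain, holds new dimers until they reach the endosome, where H2-DM (H2-DMa with H2-DMb) exchanges its remnant for peptides and H2-O (H2-Oa with H2-Ob) inhibits H2-DM. Dendritic cells, B cells and activated macrophages are the main cells that carry the whole set, and in acute myeloid leukemia class II molecules are studied for their part in recognition by T cells.

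Of the 26 samples in the series, the 6 RNA-seq libraries were used and the remaining 20 were not analysed here. There were 3 MA9+SETDB1 and 3 MA9+EV libraries of poly-A selected RNA. MA9+SETDB1 cells came from lineage-negative mouse bone marrow that had received retroviruses with the MLL-AF9 fusion oncogene and SETDB1. MA9+EV cells came from the same kind of marrow with MLL-AF9 and the empty MSCVpuro vector, so both arms carry the fusion. Both were selected with puromycin for about 3 to 6 weeks in medium with IL-3 and SCF, and the lines were cultured for 8 to 12 weeks. The labels give neither the mouse strain, age and sex nor the number of separate transductions. The series design calls the replicates biological, and the p-values below measure only the spread between these libraries.

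Setdb1 (ENSMUSG00000015697.14, GRCm38 chromosome 3, 95323525 to 95357202) stood at 475, 605 and 607 CPM (counts scaled by the size of the library) in MA9+SETDB1 replicates 1, 2 and 3, against 105, 108 and 109 CPM in MA9+EV replicates 1, 2 and 3. Gene counts per library ranged from 18070482 to 21531528 in MA9+SETDB1 and from 18165046 to 22561757 in MA9+EV. Replicate 1 stood apart in both arms: the chi-square per gene between replicates 2 and 3 was 3.14 in MA9+SETDB1 and 4.29 in MA9+EV, and 78.3 to 102 for the pairs that include replicate 1. Of 12 genes listed as markers of MLL-AF9 myeloid leukemia 11 were tested, of which 3 were higher and 7 lower in MA9+SETDB1 (over all tested genes, 27.4% were higher and 26.2% lower), with the stem cell factor receptor gene Kit at 1.07 ± 1.22 CPM in MA9+SETDB1 and 114 ± 3.01 CPM in MA9+EV (SD, n = 3 each). Mef2c, also called lower, had no counts in MA9+SETDB1, and Flt3 stayed at or below 0.104 CPM in every library. The 3 higher genes Cd34, Itgam and Csf1r rose by 5.83, 2.04 and 2.27 on the log2 scale (edgeR adjusted p = 0.0003, 5.88e-05 and 0.000295).

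The class II genes moved in both directions. Cd74 and the H2-O alpha chain gene H2-Oa were about 12-fold higher in MA9+SETDB1, and the class II beta chain gene H2-Ab1 and the H2-DM genes H2-DMa and H2-DMb2 were lower. Of the 7 tested members 2 rose, where 27.4% of all tested genes did, and 3 fell, where 26.2% of all tested genes did, so that 5 of 7 were called, beside 53.5% of all tested genes (edgeR's quasi-likelihood test, Benjamini-Hochberg adjusted p under 0.05). H2-DMb1 and H2-Ob had negative fold changes that did not pass, and H2-Aa, H2-Eb1 and Ciita had too few counts to be tested. The median log2 fold change of the tested members was -2.19, against -0.01 over all tested genes. With 7 tested members this median is the value of H2-Ob (SE 0.96), which did not pass. The libraries of MA9+SETDB1 and MA9+EV did not overlap for 6 of the 7 tested members, beside 64.6% of all tested genes. MA9+SETDB1 lay above MA9+EV in 2 of them, beside 32.1% of all tested genes, and below it in 4, beside 32.5%.

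**Figure D1:**
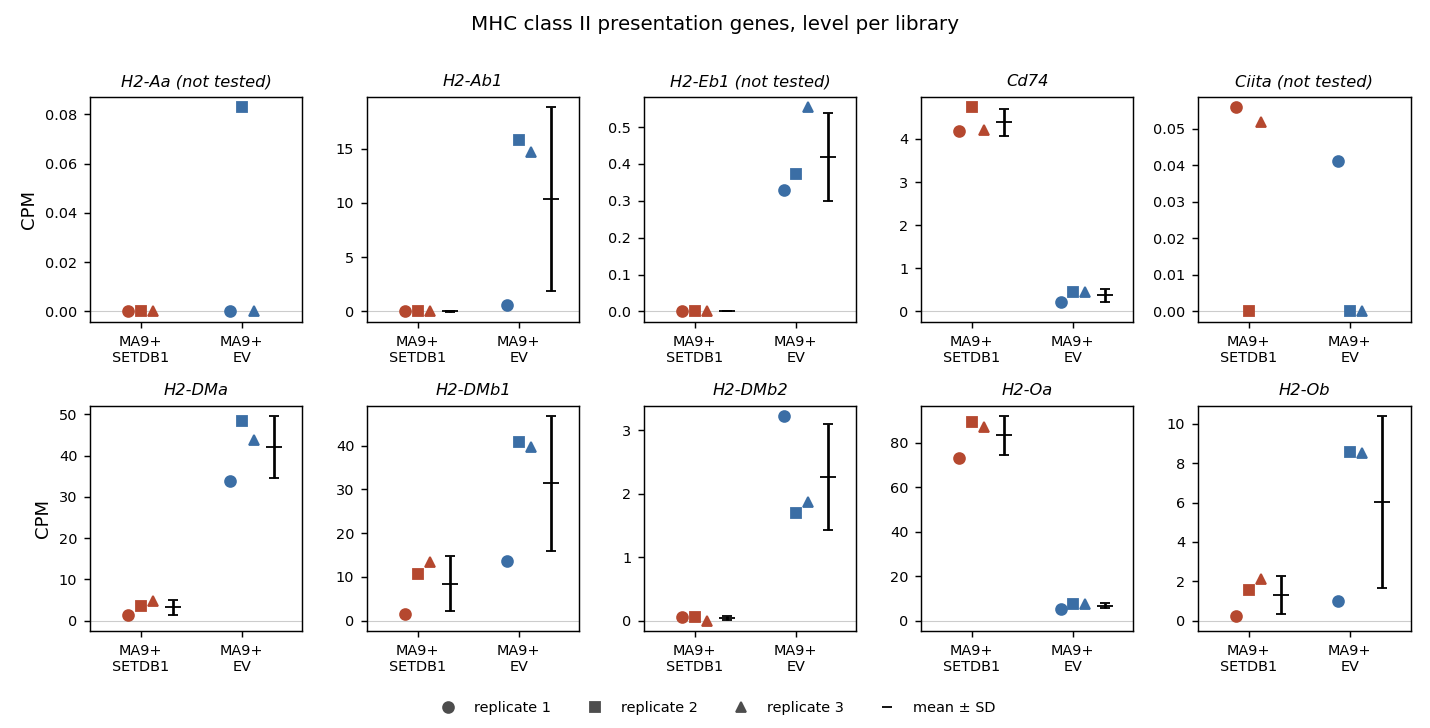
Level of each class II presentation gene in CPM (vertical axis, a separate scale for each gene) in the 3 MA9+SETDB1 libraries (left) and the 3 MA9+EV libraries (right) of each panel. Marker shapes give the replicate number, and bars give the mean ± SD, omitted for H2-Aa and Ciita, which had at most 2 counts in each arm; Cd74 and H2-Oa lie higher in every MA9+SETDB1 library, while H2-Ab1, H2-Eb1, H2-DMa, H2-DMb1 and H2-DMb2 lie lower.

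The promoters of the class II genes are shown because the SXY elements are the sequences they share. RefSeq promoter windows of GRCm38.p6 were at hand for 7 of the 10 members, with 2 windows for H2-DMa, and none for H2-Ab1, Cd74 and Ciita. The 250 bases before the start used for each window were searched on both strands for CCAAT, the core of the Y box, and for GCAAC, part of the X box. On the strand of the gene they were also searched for GCAAC followed within 40 bases by ATTGG, which is CCAAT read on the opposite strand. The ordered pair was found on the gene's strand for 4 members, H2-Aa, H2-Eb1, H2-Oa and H2-Ob, and in 0.682% of 32851 promoter windows of 27025 genes. The first letters of the GCAAC and the ATTGG lay 30 to 33 bases apart in all 4. The last 120 bases before the start of these 4 genes are printed on the gene's strand, 5′ to 3′, with the GCAAC and the ATTGG in capitals. They lie at chr17:34287824-34287943 (minus strand) for H2-Aa, chr17:34305747-34305866 (plus strand) for H2-Eb1, chr17:34092259-34092378 (plus strand) for H2-Oa and chr17:34238785-34238904 (plus strand) for H2-Ob.
H2-Aa: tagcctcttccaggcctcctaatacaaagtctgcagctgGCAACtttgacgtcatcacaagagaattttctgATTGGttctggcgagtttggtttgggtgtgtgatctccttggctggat
H2-Eb1: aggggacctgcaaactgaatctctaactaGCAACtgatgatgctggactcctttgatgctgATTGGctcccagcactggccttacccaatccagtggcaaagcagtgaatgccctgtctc
H2-Oa: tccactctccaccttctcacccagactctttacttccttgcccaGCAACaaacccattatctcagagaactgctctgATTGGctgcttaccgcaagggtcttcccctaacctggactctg
H2-Ob: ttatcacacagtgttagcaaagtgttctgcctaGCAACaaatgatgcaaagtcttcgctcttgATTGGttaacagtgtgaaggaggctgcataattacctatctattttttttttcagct

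The GCAAC began 81, 91, 76 and 87 bases before the start in H2-Aa, H2-Eb1, H2-Oa and H2-Ob, and the ATTGG 48, 59, 43 and 57 bases before it. CCAAT alone on either strand was found in a window of all 7 members, against 33.8% of all windows, and GCAAC alone in 5 of the 7, against 29.9% of all windows. The members are counted by gene and the shares by window, so the counts and shares are not on the same unit. H2-DMa had GCAAC in its window 1 only and CCAAT in its window 2 only. Both H2-DMa windows (34122582 to 34122831 and 34125268 to 34125517) lie inside the gene span given below, not before its first base. The same holds for the H2-DMb2 window (34144999 to 34145248). Window 1 of H2-DMa also overlaps the span of Brd2. Every window with the ordered pair is also counted for both single motifs. The 4 genes with the pair did not share a direction of change: H2-Oa rose, H2-Ob had a negative fold change that did not pass, H2-Eb1 had counts in MA9+EV only and H2-Aa had almost none in either arm. A match in these letters is a description of the window and not a measured binding site.

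H2-Ab1 (ENSMUSG00000073421.5, GRCm38 chromosome 17, 34263227 to 34269418) encodes the beta chain of H2-A. It had 0, 0 and 1 counts in MA9+SETDB1 replicates 1, 2 and 3, against 14, 381 and 291 counts in MA9+EV replicates 1, 2 and 3. On the CPM scale these were 0, 0 and 0.0519 in MA9+SETDB1, and 0.578, 15.8 and 14.7 in MA9+EV. The arms did not overlap, although MA9+EV replicate 1 lay far below the other two MA9+EV libraries. The ratio of scaled counts was 0.00186 (95% exact binomial interval 4.69e-05 to 0.0104), and the interval covers counting error only. On the log2 scale H2-Ab1 fell by 8.71 ± 1.72 (SE; edgeR adjusted p = 0.00499), a fitted value that rests on the 1 count in MA9+SETDB1. Without MA9+SETDB1 replicate 3, which holds that count, the log2 fold change was -10.73 (edgeR adjusted p = 0.0344), and with limma-voom it was -6.93 (adjusted p = 0.0327).

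H2-Aa (ENSMUSG00000036594.14, GRCm38 chromosome 17, 34282744 to 34287823) encodes the alpha chain that pairs with the product of H2-Ab1. It had no counts in any MA9+SETDB1 library and 0, 2 and 0 counts in MA9+EV replicates 1, 2 and 3. Both arms were thus at or under the floor of 3 counts, and no fold can be given. The alpha chain gene was therefore not detected above the floor in either arm, including in the MA9+EV libraries with 381 and 291 H2-Ab1 counts.

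H2-Eb1 (ENSMUSG00000060586.10, GRCm38 chromosome 17, 34305867 to 34316674) encodes the beta chain of H2-E. It had no counts in the MA9+SETDB1 libraries and 8, 9 and 11 counts in MA9+EV replicates 1, 2 and 3, or 0.330, 0.373 and 0.554 CPM. Every MA9+EV library thus lay above every MA9+SETDB1 library, and H2-Eb1 was at least 7.33-fold lower in MA9+SETDB1 by a floor of 3 counts over that arm. It did not reach the filter on low counts. With no such filter it was called lower (edgeR adjusted p = 0.00469), and also with replicates 2 and 3 of each arm summed (edgeR adjusted p = 0.0196).

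Cd74 (ENSMUSG00000024610.14, GRCm38 chromosome 18, 60803849 to 60812652), the invariant chain gene, was higher in every MA9+SETDB1 library. It stood at 4.20, 4.75 and 4.21 CPM in replicates 1, 2 and 3 of MA9+SETDB1, while MA9+EV replicates 1, 2 and 3 stood at 0.206, 0.456 and 0.453 CPM. The spread within MA9+SETDB1 was small and the arms were far apart. These levels rest on 75, 78 and 81 counts in MA9+SETDB1 and on 5, 11 and 9 counts in MA9+EV. Cd74 averaged 4.38 ± 0.316 CPM in MA9+SETDB1 and 0.372 ± 0.143 CPM in MA9+EV (SD, n = 3 each), and the log2 fold change was 3.55 ± 0.37 (SE; adjusted p = 0.000325 in edgeR). RefSeq places the microRNA gene Mir5107 within Cd74, and reads of overlapping genes can be left out of a count.

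Ciita (ENSMUSG00000022504.10, GRCm38 chromosome 16, 10480014 to 10531064), the class II transactivator gene, was near 0 in both arms. It had 1, 0 and 1 counts in MA9+SETDB1 replicates 1, 2 and 3, against 1, 0 and 0 counts in MA9+EV replicates 1, 2 and 3. RefSeq lists 2 genes that overlap Ciita, LOC115488669 and Dexi, and reads of overlapping genes can be left out of a count. A difference in Ciita was not detectable at this depth, where 3 counts in a library correspond to 0.156 to 0.183 CPM in MA9+SETDB1 and to 0.124 to 0.151 CPM in MA9+EV. The changes of H2-Ab1, Cd74, H2-DMa, H2-DMb2 and H2-Oa were thus measured in libraries with at most 1 Ciita count each.

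H2-DMa (ENSMUSG00000037649.9, GRCm38 chromosome 17, 34119693 to 34139101) encodes the alpha chain of the peptide editor H2-DM. It stood at 1.29, 3.65 and 4.88 CPM in replicates 1, 2 and 3 of MA9+SETDB1, while MA9+EV replicates 1, 2 and 3 stood at 33.9, 48.5 and 43.9 CPM. The highest MA9+SETDB1 library lay well below the lowest MA9+EV library. Means were 3.27 ± 1.83 CPM in MA9+SETDB1 and 42.1 ± 7.48 CPM in MA9+EV (SD, n = 3 each), and the log2 fold change was -3.68 ± 0.45 (SE; adjusted p = 0.000626 in edgeR), or 12.8-fold lower. The annotated span of H2-DMa overlaps that of the bromodomain gene Brd2, whose own log2 fold change was -0.33.

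H2-DMb1 (ENSMUSG00000079547.3, GRCm38 chromosome 17, 34153191 to 34160229) and H2-DMb2 (ENSMUSG00000037548.14, GRCm38 chromosome 17, 34143229 to 34151553) encode alternative beta chains of H2-DM. The genes are close copies, so reads that match both may be lost or misplaced and the split between them is uncertain. H2-DMb1 stood at 1.45, 10.6 and 13.3 CPM in replicates 1, 2 and 3 of MA9+SETDB1, while MA9+EV replicates 1, 2 and 3 stood at 13.6, 40.8 and 39.7 CPM. The arms met without overlapping: MA9+SETDB1 replicate 3 was just below MA9+EV replicate 1. The means were 8.46 ± 6.23 CPM in MA9+SETDB1 and 31.4 ± 15.4 CPM in MA9+EV (SD, n = 3 each), and the log2 fold change of -1.89 ± 0.76 (SE) did not pass (edgeR adjusted p = 0.0742). It passed with the replicate number as a block (-2.14, edgeR adjusted p = 0.00489). It did not pass with the close replicates 2 and 3 of each arm summed into 1 library (-1.98, edgeR adjusted p = 0.201). It passed with DESeq2 (adjusted p = 0.0168), with no filter on low counts (edgeR adjusted p = 0.0390) and without replicate 1 of both arms, a setting chosen after seeing the data (edgeR adjusted p = 1.61e-15). These values of H2-DMb1 with summed replicates and without replicate 1 are the highest and lowest adjusted p over all alternatives.

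H2-DMb2 had 1, 1 and 0 counts in MA9+SETDB1 replicates 1, 2 and 3, against 78, 41 and 37 counts in MA9+EV replicates 1, 2 and 3. These were 0.0559, 0.0609 and 0 CPM in MA9+SETDB1, and 3.22, 1.70 and 1.86 CPM in MA9+EV. The gene was thus at the edge of detection in MA9+SETDB1, and its highest MA9+EV level was in replicate 1, unlike that of H2-DMb1. On the log2 scale H2-DMb2 fell by 5.70 ± 0.66 (SE; edgeR adjusted p = 0.000493), with a ratio of scaled counts of 0.0163 (95% exact binomial interval 0.00196 to 0.0599).

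H2-Oa (ENSMUSG00000024334.8, GRCm38 chromosome 17, 34092379 to 34095234) encodes the alpha chain of H2-O, the inhibitor of H2-DM. It stood at 73.3, 89.5 and 87.3 CPM in replicates 1, 2 and 3 of MA9+SETDB1, while MA9+EV replicates 1, 2 and 3 stood at 5.37, 7.63 and 7.35 CPM. All 3 MA9+SETDB1 libraries lay far above all 3 MA9+EV libraries. The means were 83.4 ± 8.76 CPM in MA9+SETDB1 and 6.79 ± 1.24 CPM in MA9+EV (SD, n = 3 each), and the log2 fold change was 3.62 ± 0.18 (SE; adjusted p = 1.48e-05 in edgeR), or 12.3-fold higher. The RefSeq gene BC051537 overlaps H2-Oa and had levels of 6.04, 0.548 and 0.987 CPM in the MA9+SETDB1 libraries and of 0.578, 0.415 and 0.353 CPM in the MA9+EV libraries (log2 fold change 2.47, edgeR adjusted p = 0.0593). The labels describe strand-specific libraries, but no source used here gives the strand setting of the counting, so how overlapping reads were assigned is uncertain.

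H2-Ob (ENSMUSG00000041538.15, GRCm38 chromosome 17, 34238905 to 34245908) encodes the beta chain that pairs with the product of H2-Oa. It stood at 0.224, 1.58 and 2.13 CPM in replicates 1, 2 and 3 of MA9+SETDB1, while MA9+EV replicates 1, 2 and 3 stood at 0.991, 8.59 and 8.51 CPM. The arms overlapped, since MA9+EV replicate 1 lay below MA9+SETDB1 replicates 2 and 3. The means were 1.31 ± 0.981 CPM in MA9+SETDB1 and 6.03 ± 4.36 CPM in MA9+EV (SD, n = 3 each), and the log2 fold change of -2.19 ± 0.96 (SE) did not pass (edgeR adjusted p = 0.0941). It passed with the replicate number as a block (-2.19, edgeR adjusted p = 0.00243), with DESeq2 (adjusted p = 0.0349), without MA9+EV replicate 1 (-2.70, edgeR adjusted p = 0.0261) and without replicate 1 of both arms (edgeR adjusted p = 5.11e-11). It did not pass with replicates 2 and 3 of each arm summed (-2.15, edgeR adjusted p = 0.271), which was the highest adjusted p over all alternatives. The partner genes H2-Oa and H2-Ob thus had fold changes of opposite sign, of which that of H2-Oa passed the test in every alternative.

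With the replicate number as a block, 2 members were higher and 5 lower, where 29.2% and 29.0% of all tested genes were. H2-DMb1 and H2-Ob were the genes added, and neither was called when replicates 2 and 3 of each arm were summed (edgeR adjusted p = 0.201 and 0.271). Replicate 1 was the lowest library of both arms for 5 of the 7 tested members, Cd74, H2-DMa, H2-DMb1, H2-Oa and H2-Ob, and for 25.7% of all tested genes. The direction of H2-Ab1, Cd74, H2-DMa, H2-DMb2 and H2-Oa and their calls held in all 14 alternatives, which include leaving out each library in turn.

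**Figure D2:**
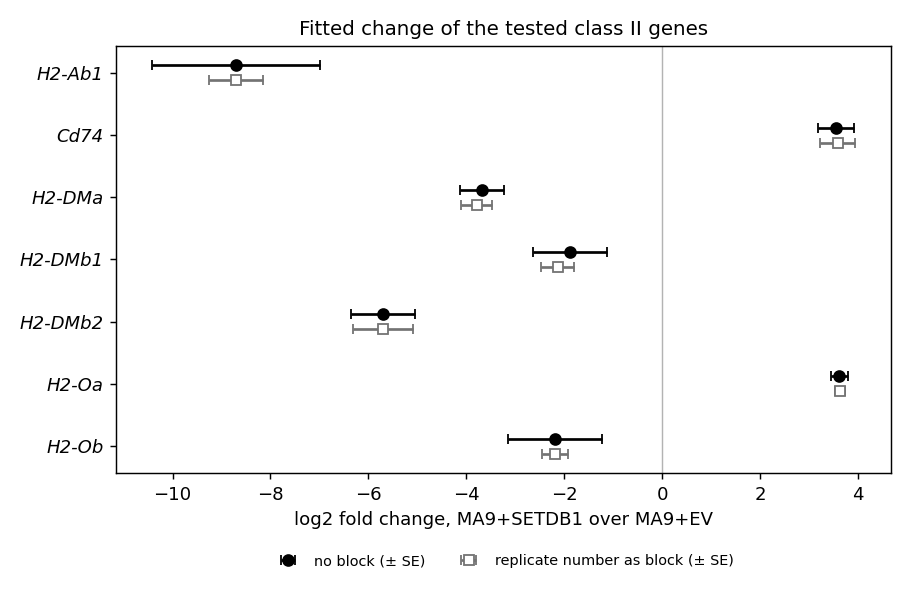
Log2 fold change of MA9+SETDB1 over MA9+EV (horizontal axis, 0 marks no change) for the 7 tested class II genes, fitted without a block (filled circles) and with the replicate number as a block (open squares), with standard errors as bars. Cd74 and H2-Oa lie at 3.55 and 3.62 without the block, the other 5 genes lie below 0, and the bars of H2-DMb1 and H2-Ob are shorter with the block.

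Of the 10 members, 8 lie in a 224 kb stretch of chromosome 17 from the start of H2-Oa to the end of H2-Eb1 (GRCm38 chromosome 17, 34092379 to 34316674). RefSeq lists 14 genes in this stretch, of which 13 had a row in the count table and 11 were tested. Of the tested genes, H2-Oa alone rose, 8 fell, and H2-DMb1 and H2-Ob did not pass. Neighbouring genes that are not class II presentation genes fell as well, 5 of 5 tested, beside 26.2% of all tested genes. The immunoproteasome subunit genes Psmb9 and Psmb8 did not overlap between the arms: Psmb9 stood at 3.53 ± 0.471 CPM in MA9+SETDB1 and 30.4 ± 8.89 CPM in MA9+EV, and Psmb8 at 22.7 ± 2.72 CPM in MA9+SETDB1 and 114.5 ± 34.1 CPM in MA9+EV. Their log2 fold changes were -3.10 and -2.33 (edgeR adjusted p = 0.00017 and 0.00034). The peptide transporter gene Tap2 fell by 1.73 on the log2 scale (edgeR adjusted p = 0.000811). Tap1 and Brd2, named after their values were seen, had log2 fold changes of -0.89 and -0.33 (edgeR adjusted p = 0.00607 and 0.0313). The Brd2 call was lost when replicate 2 or 3 of either arm was left out (edgeR adjusted p up to 0.130) and with no filter on low counts (0.0749).

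The wider list of the region held 22 genes that are not members, those 5 included. Of these 18 were tested, 3 rose and 6 fell, beside 27.4% and 26.2% of all tested genes. The median log2 fold change of the 18 was -0.18. The collagen gene Col11a2, next to the H2-Oa side, fell by 3.03 on the log2 scale, to 6.12 ± 1.00 CPM in MA9+SETDB1, against 50.0 ± 14.6 CPM in MA9+EV (edgeR adjusted p = 0.000122). Farther out, the tapasin gene Tapbp, which encodes a chaperone of MHC class I loading, rose by 1.03 (edgeR adjusted p = 0.00179).

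**Figure D3:**
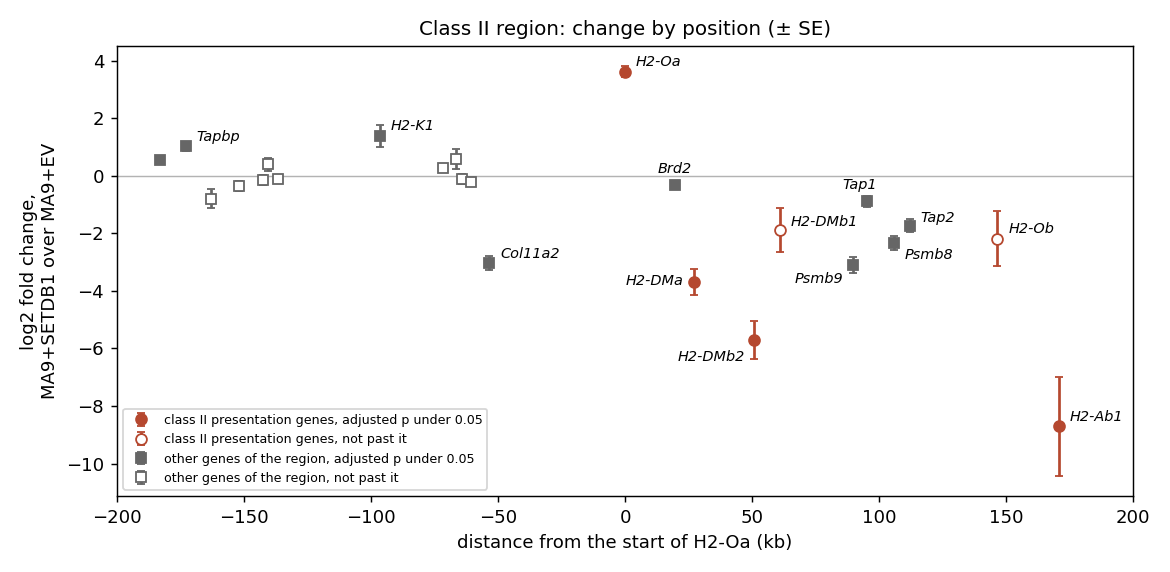
Log2 fold change of MA9+SETDB1 over MA9+EV with its standard error (vertical axis) by distance from the start of H2-Oa in kb (horizontal axis), for the tested class II genes (circles) and other tested genes of the region (squares). Filled markers passed an adjusted p under 0.05; H2-Oa at 3.62 stands above 0, and every other tested gene to its right, up to H2-Ab1 at -8.71, lies below 0.

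The other genes of the pathway were counted from the same fit. Of 13 tested genes for the complex at class II promoters, 3 rose and 3 fell, or 23.1% each way. Over all tested genes, 27.4% rose and 26.2% fell. The median log2 fold change of this list was -0.06. Nlrc5, which encodes a relative of Ciita that acts on MHC class I genes, fell by 5.08 on the log2 scale (edgeR adjusted p = 0.00092), at 0.0762 ± 0.0850 CPM in MA9+SETDB1 and 2.74 ± 0.636 CPM in MA9+EV. Its fold change depended on the MA9+SETDB1 libraries, with -6.32 without replicate 1 and -4.49 without replicate 3, and it was called lower in both cases. Among NF-Y subunit genes, Nfyb rose by 2.11 (edgeR adjusted p = 0.00326) and Nfyc fell by 0.90 (edgeR adjusted p = 0.00234). The acetyltransferase gene Ep300 rose by 0.85 and Creb1 fell by 1.22 (edgeR adjusted p = 0.00268 and 0.0053). The third gene that rose was Rfx5, named after its values were seen, which encodes an RFX subunit (log2 fold change 0.64, edgeR adjusted p = 0.0408). The Rfx5 call was lost under upper-quartile scaling (edgeR adjusted p = 0.0569) and when any 1 of the 3 MA9+EV libraries was left out (0.0591 to 0.126).

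Of 14 genes known to control Ciita, 12 were tested, of which 2 rose and 5 fell, beside 27.4% and 26.2% of all tested genes. The median log2 fold change of this list was -0.42. Genes of the interferon gamma response were on both sides. Ifngr1, the ligand-binding chain of the interferon gamma receptor, fell by 2.30 on the log2 scale (edgeR adjusted p = 7.35e-05), at 134.6 ± 12.7 CPM in MA9+SETDB1 and 661 ± 113 CPM in MA9+EV. Irf1, a transcription factor gene that interferon gamma induces, fell by 1.99 (edgeR adjusted p = 0.000226), at 6.37 ± 1.31 CPM in MA9+SETDB1 and 25.3 ± 0.785 CPM in MA9+EV. The receptor kinase gene Jak2 and the feedback inhibitor gene Socs1 rose by 3.15 and 4.03 (edgeR adjusted p = 1.17e-05 and 0.000105).

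Irf8, which encodes a transcription factor of monocytes, dendritic cells and B cells, had 1 count over the MA9+SETDB1 libraries and 825 over the MA9+EV libraries. The ratio of scaled counts was 0.00154 (95% exact binomial interval 3.9e-05 to 0.00862), and Irf8 was lower (edgeR adjusted p = 8.98e-05). Its fitted log2 fold change was -8.93, and -11.00 without MA9+SETDB1 replicate 2, which holds that count. Spi1, the PU.1 gene, named after its values were seen, had a log2 fold change of 0.10 (edgeR adjusted p = 0.501). Prdm1 had no counts in any library.

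Of 9 genes for the enzymes that process antigen and the invariant chain, 6 rose and 2 fell, beside 27.4% and 26.2% of all tested genes. The median log2 fold change of this list was 1.19. Sppl2a, the protease that clears the last invariant chain fragment from membranes, stood at 370.5 ± 93.7 CPM in MA9+SETDB1 and 70.7 ± 10.8 CPM in MA9+EV (log2 fold change 2.39, edgeR adjusted p = 0.000214). Ifi30, the lysosomal thiol reductase gene, stood at 169 ± 36.1 CPM in MA9+SETDB1 and 42.3 ± 7.79 CPM in MA9+EV (log2 fold change 2.00, edgeR adjusted p = 0.000342). The cathepsin genes Ctsh and Ctsd rose by 3.37 and 1.19 (edgeR adjusted p = 0.000136 and 0.00282). Cathepsins S and L cut the invariant chain in antigen-presenting cells, and their genes are the ones that fell. Ctss fell by 2.74, at 0.762 ± 0.375 CPM in MA9+SETDB1 and 5.14 ± 1.09 CPM in MA9+EV (edgeR adjusted p = 0.00209). Ctsl, named after its values were seen, fell by 3.66, at 6.53 ± 4.35 CPM in MA9+SETDB1 and 82.8 ± 42.3 CPM in MA9+EV (edgeR adjusted p = 0.00506).

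Of 8 genes for the trafficking of class II molecules, 7 were tested, of which 4 rose and 1 fell. Over all tested genes, 27.4% rose and 26.2% fell. The median log2 fold change of this list was 1.07. The tetraspanin genes Cd9, Cd82 and Cd63 and the lysosomal membrane gene Lamp1 rose by 6.20, 2.28, 1.13 and 1.07 (edgeR adjusted p = 3.04e-05, 4.09e-05, 0.00147 and 0.000756). Arl8b, which encodes a GTPase that positions lysosomes, fell by 0.50 (edgeR adjusted p = 0.00574). March1, which encodes the ubiquitin ligase that removes class II molecules from the surface, had no counts in MA9+SETDB1 and 24, 13 and 9 counts in MA9+EV replicates 1, 2 and 3. It was not tested and was at least 12.0-fold lower in MA9+SETDB1 by a floor of 3 counts over that arm. The number of genes of this list called lower was 1 to 3 when each library was left out in turn, with 3 without MA9+SETDB1 replicate 1.

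Of 10 genes for costimulatory and inhibitory ligands that antigen-presenting cells carry, 6 were tested, of which 5 rose and 0 fell in edgeR, with 0 lower also at an unadjusted p under 0.05 and 0 lower with DESeq2 or limma-voom. With no filter on low counts, without MA9+EV replicate 2 and with summed replicates 2 and 3, edgeR called 1 lower. Over all tested genes, 27.4% rose and 26.2% fell in the main fit. The median log2 fold change of the 6 tested ligand genes was 2.64. Pdcd1lg2, the PD-L2 gene, stood at 44.2 ± 0.478 CPM in MA9+SETDB1 and 0.801 ± 0.131 CPM in MA9+EV (log2 fold change 5.77, edgeR adjusted p = 2.35e-06). Cd274, the PD-L1 gene, rose by 2.05 and Cd80 by 2.35 (edgeR adjusted p = 0.00127 and 8.53e-05). Tnfsf9, the 4-1BB ligand gene, rose by 2.92 (edgeR adjusted p = 0.00702), and by 2.08 without MA9+SETDB1 replicate 1. Tnfsf4, the OX40 ligand gene, had no counts in MA9+EV and was at least 20.4-fold higher in MA9+SETDB1, with 3 counts taken as the floor of that empty arm. Cd40 had no counts in any library, and Cd86 had 3 counts over the MA9+SETDB1 libraries and 34 over the MA9+EV libraries, both named after their values were seen.

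**Figure D4:**
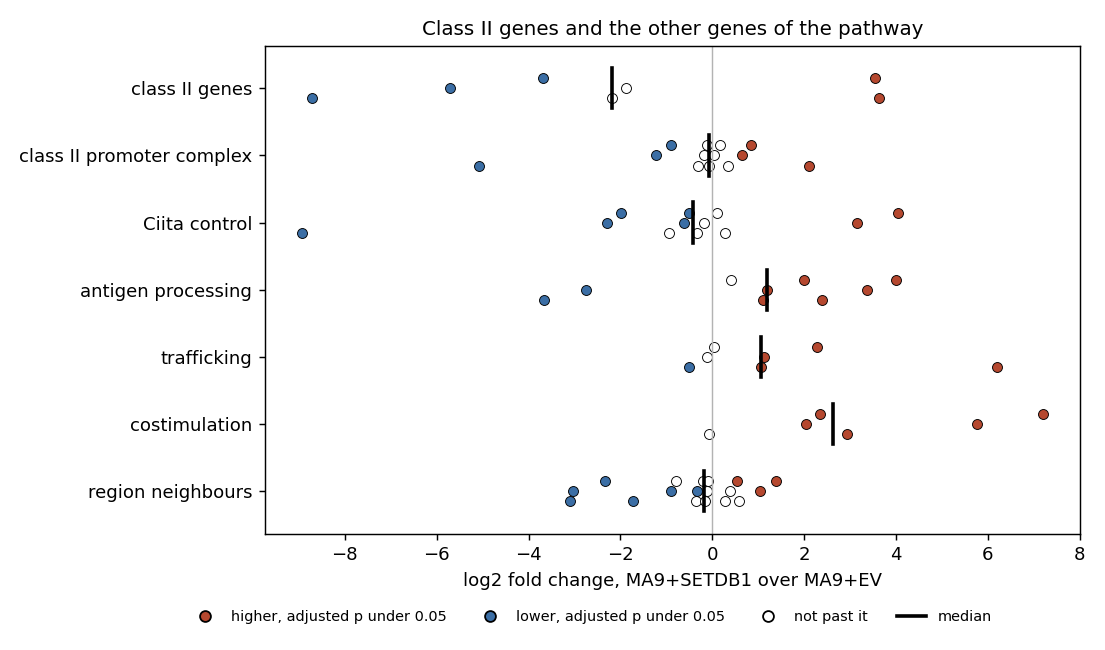
Log2 fold change of MA9+SETDB1 over MA9+EV (horizontal axis) of every tested gene in the class II set and in 6 lists of related genes (rows, from the class II genes at the top to the region neighbours at the bottom). Red marks genes that passed upward, blue downward and white neither, and the vertical bar is the median, from -2.19 for the class II genes to 2.64 for the ligands; the rightmost point, Tnfsf4, is a fitted value against an arm without counts.

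The genes with the profile nearest to that of Cd74 over the 6 libraries, among 9038 with a mean of at least 10 CPM, were Numbl, Ralgds and Cd82. Their root mean square difference from Cd74 in centred log2 (CPM + 0.5) was 0.0974, 0.108 and 0.12. Cd74 stood at 0.372 CPM in MA9+EV, below the added 0.5, so the offset narrows its change in this profile. Numbl stood at 19.9 CPM in MA9+SETDB1 and 3.09 CPM in MA9+EV. Ralgds stood at 28.2 CPM in MA9+SETDB1 and 4.73 CPM in MA9+EV, and Cd82 at 252 CPM in MA9+SETDB1 and 52.1 CPM in MA9+EV. For H2-Oa the nearest of 9037 genes were Crem, Angpt1 and Tec, with differences of 0.1, 0.136 and 0.144. Crem stood at 41.3 CPM in MA9+SETDB1 and 3.20 CPM in MA9+EV, and Angpt1 at 73.4 CPM in MA9+SETDB1 and 5.59 CPM in MA9+EV.

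Markers of cells that carry class II molecules also differed between the arms, and in bulk RNA fewer cells of a type and less RNA per cell cannot be told apart. The 10 B cell markers summed to 208 to 241 CPM in MA9+SETDB1 and 124 to 196 CPM in MA9+EV, most of it from Cd37. Cd79b was not called, at 2.83 ± 0.474 CPM in MA9+SETDB1 and 2.03 ± 1.68 CPM in MA9+EV (edgeR adjusted p = 0.513). Blnk and Cd79a had 0 counts over the MA9+SETDB1 libraries, and 14 and 3 over the MA9+EV libraries. Ms4a1, Pax5, Cr2 and Cd22 had no counts in any library. The 9 conventional dendritic cell markers summed to 17.2 to 20.8 CPM in MA9+SETDB1 and 0.806 to 1.20 CPM in MA9+EV. Of these, Xcr1, Batf3 and Cd209a had no counts in any library. Clec9a and Ccr7 had 0 counts over the MA9+SETDB1 libraries, and 7 and 2 over the MA9+EV libraries. Flt3 had 4 counts over the libraries of each arm. The lectin gene Clec10a stood at 12.6 ± 3.64 CPM in MA9+SETDB1 and 0.636 ± 0.335 CPM in MA9+EV, and the integrin gene Itgax at 4.94 ± 1.11 CPM in MA9+SETDB1 and 0.197 ± 0.0932 CPM in MA9+EV. The dendritic cell transcription factor gene Zbtb46 stood at 1.79 ± 0.637 CPM in MA9+SETDB1 and had no counts in MA9+EV.

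The 10 macrophage markers summed to 442 to 1397 CPM in MA9+SETDB1 and 38.8 to 43.0 CPM in MA9+EV, with Adgre1, the F4/80 gene, at 923 ± 477 CPM in MA9+SETDB1 and 11.1 ± 0.749 CPM in MA9+EV. Cd68 and Csf1r were higher as well, with log2 fold changes of 2.39 and 2.27 (edgeR adjusted p = 0.00398 and 0.000295), and 6 other genes of this list had lower values in MA9+SETDB1. The Fc receptor gene Fcgr1 stood at 0.553 ± 0.276 CPM in MA9+SETDB1 and 2.33 ± 2.70 CPM in MA9+EV (edgeR adjusted p = 0.0957). Mertk had 0 counts over the MA9+SETDB1 libraries and 13 over the MA9+EV libraries, and Cx3cr1 had 2 counts over the MA9+SETDB1 libraries and 11 over the MA9+EV libraries. The complement genes C1qa, C1qb and C1qc had 0, 1 and 0 counts over the MA9+SETDB1 libraries and 5, 8 and 6 over the MA9+EV libraries, and Vsig4 had none in any library. The 7 plasmacytoid dendritic cell markers summed to 36.9 to 64.5 CPM in MA9+SETDB1 and 65.2 to 90.0 CPM in MA9+EV, with Siglech, Ly6d and Klk1 at 0 in all libraries. In this list the transcription factor gene Tcf4 stood at 1.59 ± 0.811 CPM in MA9+SETDB1 and 44.9 ± 7.13 CPM in MA9+EV. Bst2 made up most of the sum in MA9+SETDB1, at 52.4 ± 14.9 CPM in MA9+SETDB1 and 34.6 ± 5.57 CPM in MA9+EV (edgeR adjusted p = 0.0735, and 0.0116 with the replicate block). Cox6a2 stood at 0.644 ± 0.408 CPM in MA9+SETDB1 and 1.95 ± 1.43 CPM in MA9+EV (edgeR adjusted p = 0.16, and 0.0251 with the replicate block), and Ccr9 had 20 counts over the MA9+SETDB1 libraries and 1 over the MA9+EV libraries. The part of the dendritic cell and macrophage markers in the class II changes was not tested.

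Lists of markers of other blood lineages were summed in the same way. Mast cell and basophil markers summed to 11092 to 11616 CPM in MA9+SETDB1 and 49.6 to 85.0 CPM in MA9+EV. Erythroid markers summed to 1875 to 2029 CPM in MA9+SETDB1 and 0.826 to 1.71 CPM in MA9+EV, and eosinophil markers to 218 to 225 CPM in MA9+SETDB1 and 4.84 to 7.14 CPM in MA9+EV. Granulocyte progenitor markers summed to 278 to 351 CPM in MA9+SETDB1 and 14800 to 16992 CPM in MA9+EV. T and NK cell markers summed to 30.0 to 53.2 CPM in MA9+SETDB1 and 24.8 to 31.2 CPM in MA9+EV, with Cd3e, Cd4, Cd8a, Ncr1 and Klrb1c at 0 in all libraries. The class II changes run along the same 3 against 3 split of the libraries as these lineage markers, and cannot be told apart from them.

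**Figure D5:**
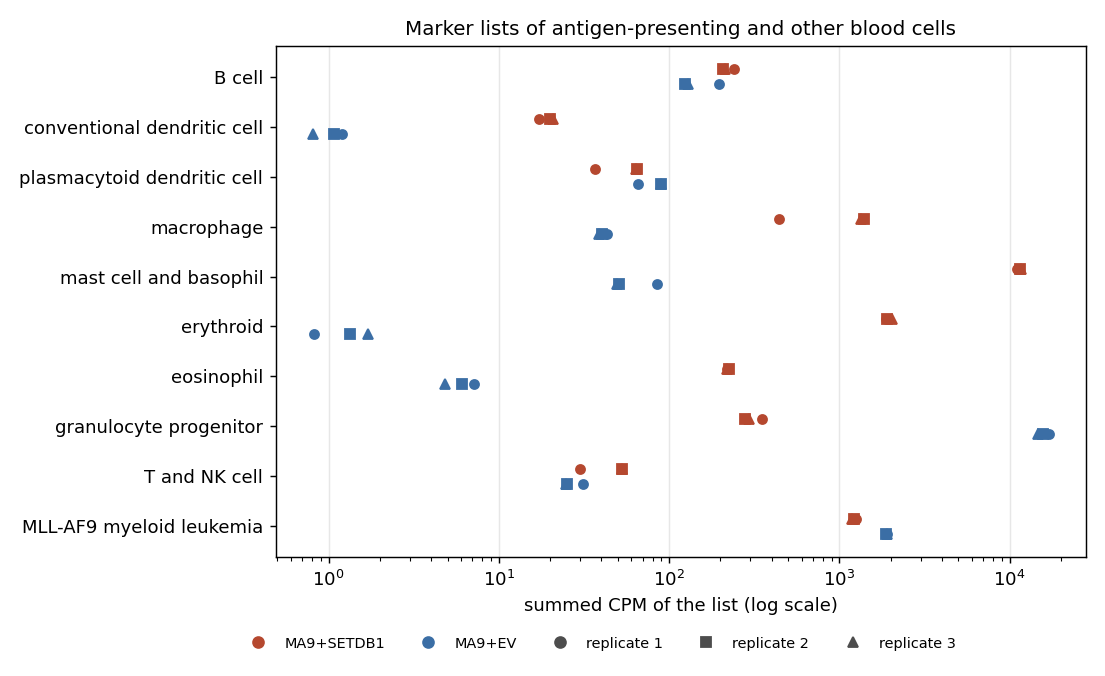
Summed CPM of each marker list (horizontal axis, log scale) in the 3 MA9+SETDB1 libraries (red) and the 3 MA9+EV libraries (blue), with the replicate number as marker shape. The B cell, conventional dendritic cell, macrophage, mast cell and basophil, erythroid and eosinophil lists lie higher in every MA9+SETDB1 library. The granulocyte progenitor, plasmacytoid dendritic cell and MLL-AF9 myeloid leukemia lists lie lower.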

How the data were processed

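The authors deposited 1 table per library of whole-number read counts per Ensembl gene, without normalization. The build was GRCm38, per the submitters' processing notes, which also list cutadapt 1.18, STAR 2.6.0c and HTSeq 0.11.0, without roles, among other tools. The closing summary lines (24.6% to 26.3% of entries, 18.4% to 20.2% multi-mapped reads) were left out. Of 54146 identifiers, 52480 matched a symbol by versioned and 1599 by stable identifier, and 67 did not match. Coordinates and promoters came from RefSeq.

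Counts were filtered with filterByExpr, scaled with TMM and tested over the whole table with edgeR 4.0.16 (limma 3.58.1, R 4.3.3), with standard errors derived from the F statistic and Benjamini-Hochberg adjustment over 12986 genes. The scripts were tested on simulated data. DESeq2 1.42.0, limma-voom, other scalings, no filter, a replicate block, left-out libraries and summed replicates 2 and 3 were alternatives. Same-numbered libraries of the arms, numbered in their titles, deviated together (correlations 0.271, 0.225 and 0.205). Replicates 2 and 3 also correlated across numbers (0.240 and 0.204). The main fit had no block, and a block on the replicate number was used as an alternative only. The smallest exact two-sided permutation p for 3 libraries against 3 is 0.1, so single genes were tested in the fit across all genes only. Bounds and intervals cover counting error only. Transcript lengths were not used here, so levels are not compared between genes.

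The members and lists were chosen with earlier results of these data known. Named genes were all members, Setdb1, the 5 smallest p-values of each pathway list, the 3 most abundant genes of each marker list (only some are printed), and the 3 nearest profiles to Cd74 and H2-Oa. March1 and Prdm1 were not tested and have no p-value, so they were named outside the rule for the pathway lists. Kit, Mef2c, Flt3, Cd34, Cd79a, Clec9a, Ccr7, Fcgr1, Mertk, Cx3cr1, the C1q genes, Ccr9 and the markers listed at 0 were added after their values were seen. Single results for 2 listed genes are not reported here.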

Additional observations from a re-analysis of the deposited data

How the results depend on the processing

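The 2 members called higher, Cd74 and H2-Oa, were called in all 14 alternatives. The number called lower was 3, and 5 with DESeq2, 5 with no filter on low counts (adding H2-Eb1 and H2-DMb1), 5 in the fit that blocks on replicate number (2 higher) and 5 without replicate 1 of both arms; leaving out each library in turn gave 3 to 4, and summing replicates 2 and 3 of each arm gave 4, with H2-Eb1 added and H2-DMb1 and H2-Ob not called. No called member changed sign. Over the whole table, summing replicates 2 and 3 of each arm gave 2292 genes higher and 1928 lower, leaving out replicate 1 of both arms gave 5314 higher and 5285 lower, and leaving out each library in turn gave 2992 to 4231 higher and 2727 to 4063 lower. The 6 pathway lists together held 23 genes higher and 17 lower, and 17 to 30 higher and 13 to 25 lower over the alternatives. Over all tested genes, 27.4% were higher and 26.2% lower in the main fit. With summed replicates, Nfyc, Ep300, Rfx5, Arl8b, Tap1 and Brd2 were no longer called. Scaling moved the median of all genes to between -0.08 and -0.00 (log2). The cause of these shifts was not tested. Counts of a few reads limit H2-Aa, Ciita and H2-Eb1.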
